A study of Mus musculus with 8 samples.

Results

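Antigen presentation by the major histocompatibility complex (MHC) was followed in mouse liver RNA through 10 genes, taken as a named list. The list was chosen with earlier results of these data known, so counts of its genes called below are descriptive. The 10 were among the 35275 gene identifiers of the deposited table, and each was found by its symbol. Class I was represented by H2-K1, H2-D1, B2m, Tap1 and Tap2, and class II by H2-Aa, H2-Ab1, H2-Eb1, Cd74 and Ciita. RNA had been sequenced from 8 liver samples, 4 labelled WT (wild type) and 4 labelled Triple LKO, with 2 females and 2 males in each. Each sample is called a liver below. The knockout is specific to liver and is aimed at the genes Zfp36, Zfp36l1 and Zfp36l2 of the tristetraprolin family, RNA-binding proteins that send AU-rich mRNAs into decay. The series title sets these mice in the development of hepatocellular carcinoma, a liver cancer. No agent is named for either group, and the strain, the age, the driver of the deletion, the part of the liver taken and any tumour status are not stated in the labels. The labels do not state that each sample is a separate animal, so the p-values below measure no more than the spread among the 8 samples, which may be technical.

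Class I molecules sit on nearly every nucleated cell and show it peptides from its own proteins to CD8 T cells. A heavy chain such as H2-K or H2-D pairs with beta-2-microglobulin (B2m) and is loaded with peptides that the transporter made of Tap1 and Tap2 carries into the endoplasmic reticulum. Class II molecules show peptides from engulfed material to CD4 T cells and are made mainly by dendritic cells, B cells and macrophages, hardly by resting hepatocytes. The chains H2-Aa, H2-Ab1 and H2-Eb1 are escorted by the invariant chain Cd74, and the coactivator Ciita switches on their transcription.

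Class II RNA was high in both LKO-labelled females and in no other liver. The classical heavy chain H2-K1 was called lower with both sexes fitted together, a call that held in 6 of 18 alternative fits. Within females or males alone H2-K1 did not pass the test. Its partner B2m was called lower in males. All 5 class II genes rose in LKO-labelled females against WT females, by 5.81- to 9.27-fold in mean FPKM (fragments per kilobase of transcript, scaled to library depth). In LKO-labelled males the same 5 genes stood at 71.2% to 85.2% of WT males, and none of them passed the test there. H2-K1 stood lower in every LKO-labelled liver than in any WT liver, and B2m fell in males to 39.4% of WT.

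The libraries held 15.1 to 18.8 M fragments. The targeted genes check the labels. Zfp36 stood at 29.5 to 61.4 FPKM in WT, 11.6 and 17.4 in LKO-labelled females, and 4.51 and 3.66 in LKO-labelled males. Zfp36l1 stood at 10.6 to 21.9 FPKM in WT, 4.67 and 8.63 in LKO-labelled females, and 0.499 and 0.695 in LKO-labelled males. In females the fall of Zfp36l1 was not called (limma adjusted p = 0.0798). The log2 change differed between females and males for each targeted gene (limma adjusted p = 0.0212 to 0.033). Zfp36l2 went against the label in females, at 18.1 and 33.04 FPKM, above the 11.8 to 17.2 of WT, and was 4.34 and 3.86 in LKO-labelled males; the term LKO-labelled is kept for that reason. Both LKO-labelled females stood apart in other ways, with 12667 and 12798 genes at or above 1 FPKM against 10271 to 10849 in WT, and with 2.80% and 3.44% of fragments from mitochondrial genes against 6.52% to 7.75%. A single predicted gene, Gm42418, made up 3.18% to 4.34% of fragments in 6 libraries but 0.0602% in WT male 4 and 0.0422% in the LKO-labelled female with replicate number 1. Hepatocyte markers such as albumin were abundant in all 8 libraries.

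Of the 10 genes, 7 lie on chromosome 17 in the H2 region, between 33996017 and 35267499 on the GRCm38 assembly (GENCODE M21). H2-K1 (ENSMUSG00000061232) spans 33996017 to 34000347 on the minus strand, and H2-D1 (ENSMUSG00000073411) spans 35262730 to 35267499 on the plus strand. Tap1 (34187553 to 34197225) and Tap2 (34203527 to 34216321) lie between them, followed by the class II genes H2-Ab1 (34257689 to 34269419), H2-Aa (34282744 to 34287823) and H2-Eb1 (34305867 to 34316674). B2m lies on chromosome 2 (122147686 to 122153083) and Ciita on chromosome 16 (10480059 to 10528418). Of the 10 genes, 6 overlap another annotated gene, among them Tap1 with Psmb9 and Ciita with Dexi on opposite strands, and reads of such overlaps cannot be told apart where the strand setting is not stated.

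The promoters of H2-K1 and H2-D1 are shown because the proteins they drive are alternative class I heavy chains whose RNAs moved apart here. Each line is 300 bases from RefSeq (GRCm38.p6), 5′ to 3′ on the gene's own strand, from 250 bases before the annotated start to 50 after it. The H2-K1 window is chr17:34000298-34000597 on the minus strand, the first of 2 windows listed for the gene, and the H2-D1 window is chr17:35262844-35263143 on the plus strand. Capitals mark matches, on either strand, to CCAAT (bound by NF-Y), TGACG (the core of the X2 box of MHC promoters), GGGGATTCC (a kappa B core) and AANNGAAA (an interferon regulatory factor core).
H2-K1: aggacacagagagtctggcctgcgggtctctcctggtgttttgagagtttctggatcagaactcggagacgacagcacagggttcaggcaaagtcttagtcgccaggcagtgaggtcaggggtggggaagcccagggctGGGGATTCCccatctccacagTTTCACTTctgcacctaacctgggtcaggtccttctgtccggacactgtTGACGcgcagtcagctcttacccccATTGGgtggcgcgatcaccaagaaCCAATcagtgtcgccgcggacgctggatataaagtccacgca
H2-D1: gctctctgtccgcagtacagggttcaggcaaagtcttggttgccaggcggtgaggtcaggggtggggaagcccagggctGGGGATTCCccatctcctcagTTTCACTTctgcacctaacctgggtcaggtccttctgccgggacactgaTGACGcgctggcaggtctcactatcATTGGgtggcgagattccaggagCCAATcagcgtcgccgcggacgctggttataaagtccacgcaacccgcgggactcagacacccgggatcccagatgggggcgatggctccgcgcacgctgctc

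Over 228 aligned columns these windows were 90.4% identical. Both held the same matches in the same order, and relative to the annotated start those of H2-D1 were shifted upstream by 60 or 61 bases. The CCAAT match on the gene's own strand lay after the annotated start in H2-K1 and before it in H2-D1. The shift depends on where each start is annotated, and where transcription begins was not tested. The kappa B core began 111 bases before the start in H2-K1 and 171 bases before it in H2-D1, and TGACG began 41 and 101 bases before it. Of 32851 mouse promoter windows of this length, 0.250% held GGGGATTCC, 20.8% TGACG, 37.4% CCAAT and 23.9% AANNGAAA. A match describes letters and does not show binding.

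For class II, windows were at hand for H2-Aa (chr17:34287774-34288073, minus strand) and H2-Eb1 (chr17:34305617-34305916, plus strand), whose RNAs rose together in the LKO-labelled females. They follow with the same marking.
H2-Aa: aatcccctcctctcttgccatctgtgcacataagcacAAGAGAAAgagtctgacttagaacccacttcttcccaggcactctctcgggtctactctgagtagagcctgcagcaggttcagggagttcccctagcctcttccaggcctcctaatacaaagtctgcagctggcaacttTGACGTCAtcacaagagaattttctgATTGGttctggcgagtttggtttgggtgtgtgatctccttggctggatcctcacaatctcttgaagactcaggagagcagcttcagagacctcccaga
H2-Eb1: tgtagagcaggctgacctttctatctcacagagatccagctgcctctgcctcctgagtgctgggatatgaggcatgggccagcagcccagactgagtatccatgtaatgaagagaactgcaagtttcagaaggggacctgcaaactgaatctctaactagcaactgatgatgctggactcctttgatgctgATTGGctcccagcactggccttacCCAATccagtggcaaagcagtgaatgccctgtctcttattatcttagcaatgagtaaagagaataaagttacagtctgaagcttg

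H2-Aa held CCAAT 48 bases before the start and overlapping TGACG matches of both strands 74 and 71 bases before it. H2-Eb1 held CCAAT 59 and 35 bases before the start and none of the other 3 motifs in this window. The H2-Aa and H2-Eb1 windows aligned over 44 columns, 72.7% identical. Among the other genes of the list, B2m held CCAAT and the interferon regulatory factor core as well as TGACG matches, and Tap1 held CCAAT together with a single match to TGACG.

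The first comparison asked how the class I genes differed between the genotype labels. H2-K1, the K heavy chain, stood at 708 and 704 FPKM in WT females, 619 and 668 in WT males, 367 and 616 in LKO-labelled females, and 352 and 239.6 in LKO-labelled males. All 4 LKO-labelled livers lay below all 4 WT livers, the gap between the groups being narrow at 616 against 619. The WT mean was 675 ± 41.3 FPKM and the LKO-labelled mean 393 ± 159 (SD, n = 4 each). On the scale log2(FPKM + 1), H2-K1 changed by −0.57 ± 0.33 in females (SE, limma adjusted p = 0.215) and by −1.14 ± 0.33 in males (0.0529). Neither passed the test. With both sexes together and sex as a term, H2-K1 fell by 0.86 ± 0.26 (limma adjusted p = 0.0385), while the median gene rose by 0.39. That call did not hold without any 1 of 7 libraries, LKO-labelled female 2 being the exception (adjusted p = 0.0145 to 0.0959 over the 8 fits), and it was lost under quantile normalization (log2 change −0.65, adjusted p = 0.116), without the libraries low in Gm42418 (−0.64, 0.182), with no filter on low values (0.0852), with no sex term (0.0605) and with a block on title numbers (0.081), holding in 6 of 18 alternatives.

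H2-D1, the D heavy chain, stood at 239 and 239 FPKM in WT females, 195 and 230.3 in WT males, 303 and 498 in LKO-labelled females, and 218 and 171 in LKO-labelled males. The LKO-labelled females lay above every WT liver, and the males were on both sides of WT male 3. The genotype difference was 0.28 ± 0.26 (log2, SE; limma adjusted p = 0.42), and −0.16 with median-of-ratios scaling. In females the log2 change was 0.70 ± 0.30 (adjusted p = 0.111) and in males −0.14 ± 0.30 (0.808).

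The share of H2-D1 in the summed FPKM of both heavy chains does not depend on how libraries are scaled. It was 25.3% in each WT female, 23.9% and 25.6% in WT males, 45.2% and 44.7% in LKO-labelled females, and 38.2% and 41.6% in LKO-labelled males. WT livers thus lay close together, and every LKO-labelled liver lay above them, in both sexes. The means were 25.0% ± 0.762 and 42.4% ± 3.24 (SD, n = 4 each), given as a description with no test. The sum of both heavy chains was 901 ± 62.0 FPKM over the WT livers and 691 ± 302 over the LKO-labelled ones. H2-K1 and H2-D1 are close relatives, so reads may be split between them: of the 50-base stretches of their transcripts, 6.94% of those of H2-K1 also occur in H2-D1 and 5.31% of those of H2-D1 in H2-K1.

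B2m, the light chain common to class I molecules, was the most abundant of the 10 in both groups. Its FPKM was 1793 and 1722 in WT females, 1684 and 1818 in WT males, 1148 and 1831 in LKO-labelled females, and 649 and 732 in LKO-labelled males. WT livers were close together, LKO-labelled males were far below them, and the LKO-labelled females fell on either side. The genotype difference was −0.81 ± 0.30 (log2, SE; limma adjusted p = 0.0705). In males B2m fell by 1.34 ± 0.32 (adjusted p = 0.0281), and in females the change was −0.28 ± 0.32 (0.524). Without either WT male or either LKO-labelled male, the adjusted p in males was 0.0717 to 0.153, and without either WT female it was 0.0725.

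The peptide transporter genes were expressed at a few FPKM. Tap1 stood at 3.97 and 6.79 FPKM in WT females, 4.43 and 3.22 in WT males, 13.0 and 13.1 in LKO-labelled females, and 3.63 and 2.64 in LKO-labelled males. Both LKO-labelled females lay above every other liver. In females Tap1 rose by 1.17 ± 0.28 on the log2 scale (limma adjusted p = 0.0161), 2.42-fold in mean FPKM, and the call was lost with median-of-ratios scaling (0.69, adjusted p = 0.128), under quantile normalization (0.64, 0.145), without WT female 1 (0.85, 0.111) and without the libraries low in Gm42418 (1.18, 0.0605). In males its log2 change was −0.22 ± 0.28 (adjusted p = 0.637).

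Tap2, the partner of Tap1, stood at 3.11 and 4.41 FPKM in WT females, 3.17 and 2.10 in WT males, 4.25 and 7.10 in LKO-labelled females, and 1.41 and 0.750 in LKO-labelled males. The LKO-labelled males lay below all other livers and the females overlapped with WT females. Neither the change in females (0.47 ± 0.31, limma adjusted p = 0.274) nor that in males (−0.81 ± 0.31, 0.115) passed the test. The ratio of Tap1 to Tap2 FPKM was 1.28 to 1.54 in WT and 1.84 to 3.52 in LKO-labelled livers.

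**Figure D1:**
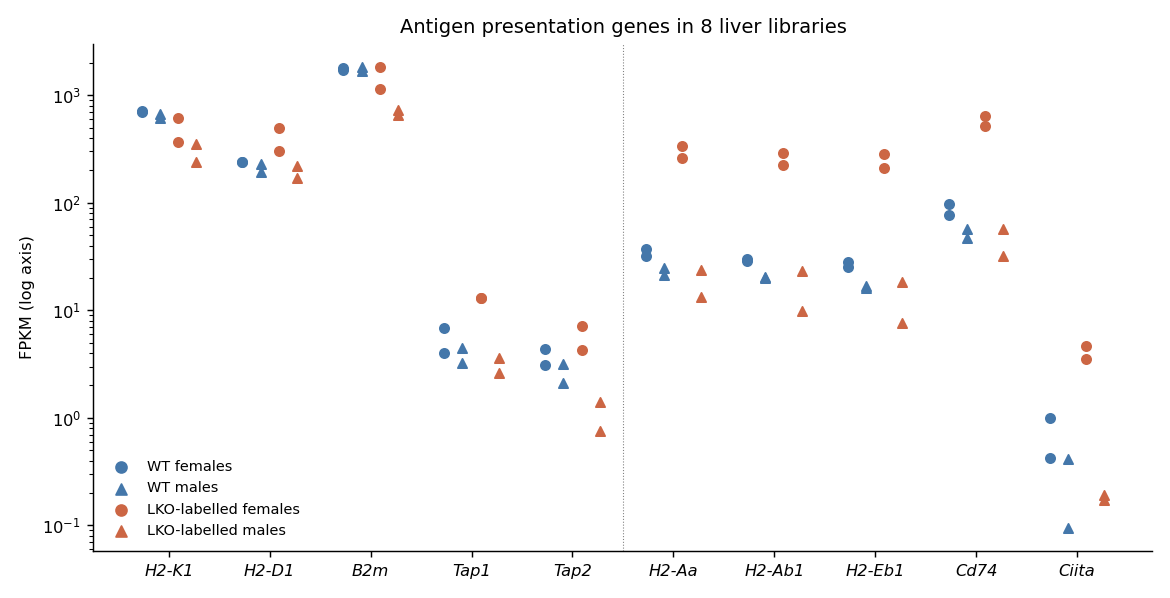
FPKM of the 10 antigen presentation genes in each of the 8 livers, on a log axis; colour gives the genotype label and shape the sex, with no error bars. The class II genes, right of the dotted line, sat far above the rest in the LKO-labelled females (H2-Aa at 259 and 338 FPKM), while H2-K1 lay lower in every LKO-labelled than in any WT liver.

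The second comparison took the class II genes. H2-Aa, an alpha chain, stood at 37.0 and 31.9 FPKM in WT females, 24.6 and 21.5 in WT males, 259 and 338 in LKO-labelled females, and 23.7 and 13.4 in LKO-labelled males. The LKO-labelled females lay far above the other 6 livers, and the LKO-labelled males overlapped with WT males. In females H2-Aa rose 8.66-fold in mean FPKM, from 34.5 ± 3.61 to 298 ± 55.9 (SD, n = 2 each; log2 change 3.07 ± 0.30 SE, limma adjusted p = 0.000655). In males its log2 change was −0.35 ± 0.30 (adjusted p = 0.466).

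H2-Ab1, the beta chain that pairs with H2-Aa, stood at 28.7 and 29.8 FPKM in WT females, 20.4 and 20.002 in WT males, 225 and 291 in LKO-labelled females, and 23.2 and 9.82 in LKO-labelled males. H2-Eb1, the beta chain of the E molecule, stood at 25.5 and 28.0 FPKM in WT females, 16.8 and 16.2 in WT males, 212 and 284 in LKO-labelled females, and 18.4 and 7.67 in LKO-labelled males. For both genes LKO-labelled male 3 lay above the WT males and male 4 below them. In females H2-Ab1 rose by 3.08 ± 0.36 on the log2 scale (limma adjusted p = 0.00125) and H2-Eb1 by 3.15 ± 0.37 (0.00123). In males the changes were −0.39 ± 0.36 (adjusted p = 0.508) and −0.43 ± 0.37 (0.472).

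Cd74, the invariant chain, lies on chromosome 18 (60803848 to 60812652, GRCm38) and was the most abundant of the class II genes in every library. It stood at 76.5 and 97.9 FPKM in WT females, 46.6 and 57.6 in WT males, 516 and 642 in LKO-labelled females, and 56.7 and 32.1 in LKO-labelled males. As for the chains, both LKO-labelled females were on top and LKO-labelled male 4 was lowest. It rose by 2.72 ± 0.32 in females (log2, SE; limma adjusted p = 0.00123) and changed by −0.27 ± 0.32 in males (0.609).

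Ciita, the coactivator of these genes, was scarce outside the LKO-labelled females. Its FPKM was 0.424 and 0.997 in WT females, 0.0949 and 0.416 in WT males, 4.69 and 3.56 in LKO-labelled females, and 0.192 and 0.171 in LKO-labelled males. Behind these values stood, at the smallest transcript length that gives whole fragments in every library, 37, 89, 9 and 33 fragments in WT, 384 and 314 in LKO-labelled females, and 19 and 16 in LKO-labelled males. Thus the low values rest on few fragments, and a difference between the males was not detectable at this depth. In females Ciita rose 5.81-fold in mean FPKM (log2 change 1.60 ± 0.27 SE, limma adjusted p = 0.00442).

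Over both sexes together, 0 of the 10 genes passed the test as higher by limma, against 24.7% of the 13573 genes tested, and 1 as lower, H2-K1, against 5.74%. At an unadjusted p under 0.05, 0 passed as higher and 2 as lower, and voom on recovered fragments called 1 as higher. In females 6 of 10 were called higher (the class II genes and Tap1), against 28.1% of all genes, and 0 lower, against 6.23%. At an unadjusted p under 0.05 the numbers in females were again 6 and 0. In males 0 were called higher, against 13.4%, and 1 lower, B2m, against 4.09%; unadjusted, 0 passed as higher and 3 as lower. Median log2 changes over all genes tested were 0.45 in females and 0.24 in males, against 3.07 and −0.35 over the 5 class II genes and 0.47 and −0.81 over the 5 class I genes.

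Whether the genotype difference itself differed between the sexes was tested as an interaction, the female minus the male log2 change. All 5 class II genes passed, against 5.47% of all genes called in that direction, and 0 passed in the other direction, against 1.73%. The interaction was 3.42 ± 0.43 for H2-Aa (SE; limma adjusted p = 0.0118), 3.48 ± 0.52 for H2-Ab1 (0.0157), 3.58 ± 0.52 for H2-Eb1 (0.0157), 2.99 ± 0.45 for Cd74 (0.0167) and 1.67 ± 0.38 for Ciita (0.0444). At an unadjusted p under 0.05, 8 of the 10 genes passed in that direction and 0 in the other. The share of all genes at that unadjusted threshold is not given, so these numbers are descriptive. The calls are not firm in every fit: without any 1 WT liver all 5 were lost, with adjusted p from 0.0646 to 0.0677 for H2-Aa and from 0.102 to 0.173 for Ciita, and voom on recovered fragments kept that of H2-Aa alone (0.0419). H2-Aa passed in 12 of 16 alternatives, H2-Ab1 and H2-Eb1 in 11 of 16 each, and Cd74 in 10 of 16, its call being lost without LKO-labelled male 4 as well (0.0503). Ciita passed in 2 of 15, without either LKO-labelled female, and its call was lost under every other scaling, filter and pseudocount that could be fitted (adjusted p up to 0.195). The sizes stayed between 2.59 and 4.16 for the chains and Cd74. The loss of calls was not particular to class II. Over all genes, those called in that direction went from 743 to 13 by voom, and few remained without any 1 WT liver. No class I gene passed, with B2m at 1.07 ± 0.45 (adjusted p = 0.187) and Tap1 at 1.39 ± 0.39 (0.0748).

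Each within-sex value sets 2 livers against 2 and borrows its spread from all 8, so sex here cannot be told apart from other differences between the LKO-labelled females and males, which include the remaining RNA of the targeted genes. In WT livers the class II chains and Cd74 stood higher in females than in males by 0.51 to 0.73 on the log2 scale, which did not pass the test (limma adjusted p = 0.977 to 1).

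**Figure D2:**
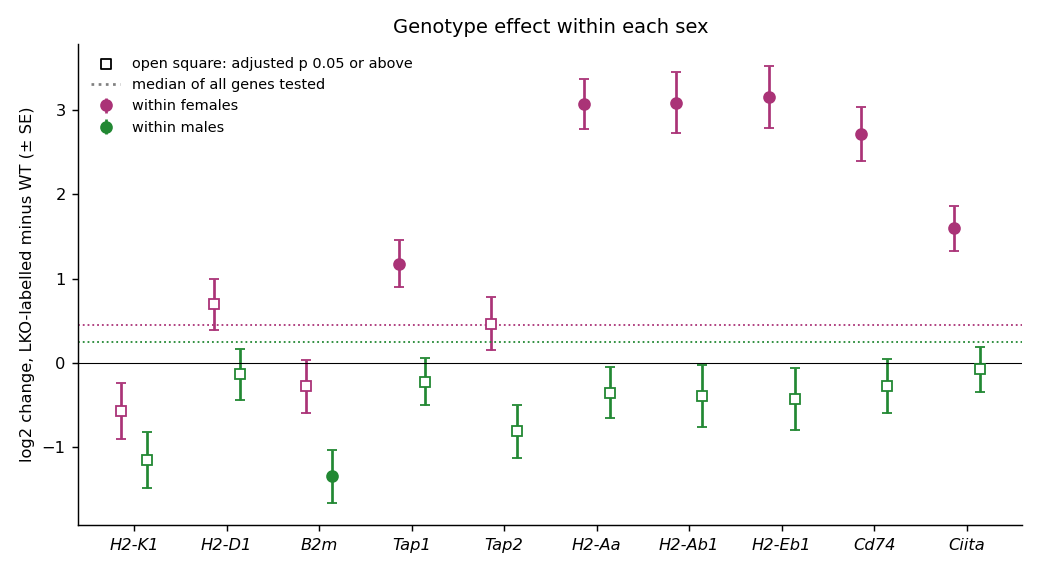
Log2 change of each of the 10 genes, LKO-labelled minus WT, in females and in males, with bars for 1 SE from limma; open squares mark adjusted p of 0.05 or above, and dotted lines the median of all genes in females (0.45) and in males (0.24). In females the class II chains lay between 3.07 and 3.15 and Ciita at 1.60, and in males all 5 class II genes lay slightly below 0.

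Within a liver the class II chains and Cd74 kept close proportions, and Ciita did not. H2-Ab1 per H2-Aa was 0.734 to 0.979 in FPKM over the 8 livers, H2-Eb1 per H2-Aa was 0.574 to 0.878, and Cd74 per H2-Aa was 1.89 to 3.07. Ciita, by contrast, was 0.386% to 3.12% of H2-Aa, the extremes both being WT livers, and it was left out of the profile below. In the LKO-labelled females the ratios of the chains and Cd74 fell inside the range of the other livers, while the levels were several-fold higher. Measured as the root mean square distance on the log2 scale over the 8 libraries, the 3 chains and Cd74 lay 0.0616 to 0.157 from their own mean profile. The nearest other protein-coding genes were Cygb (0.332), Thy1 (0.343), Ltb (0.345), Olfml3 (0.373), Cd52 (0.381) and H2-DMa (0.383), against a median of 1.51 over 12339 genes. Ltb encodes a lymphotoxin, Cd52 a leukocyte surface peptide and Cygb a globin of stellate cells.

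The class I genes lay further from their own mean profile than the class II chains and Cd74 from theirs. They lay 0.198 (Tap2) to 0.441 (Tap1) from their mean profile, and the nearest other genes, Bmp1 (0.145), Hivep2 (0.149), Ramp1 (0.153), Trim30d (0.153), Ilvbl (0.160) and Adra2b (0.161), were all nearer to it than any of the 5. The median over 12339 genes was 0.661. Each gene is part of the mean profile it is set against, and the distance depends on the size of the changes. These distances are therefore a description with no test.

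In bulk liver, fewer or more cells of a type and less or more RNA per cell cannot be told apart, so markers of class II-bearing cells are given beside these values. The summed FPKM of 4 pan-leukocyte markers (Ptprc, Cd52, Laptm5, Coro1a) was 28.1 and 32.5 in WT females, 15.8 and 17.5 in WT males, 201 and 232 in LKO-labelled females, and 26.3 and 29.4 in LKO-labelled males. The LKO-labelled mean was 7.13 times that of WT in females and 1.67 times in males. In females limma called 4 of 4 genes higher, against 28.1% of all genes tested. In males it called 0 of 4, against 13.4%, or 1 at an unadjusted p under 0.05. The class II sum (3 chains and Cd74) per unit of this leukocyte sum was 5.96 and 5.77 in WT females, 6.87 and 6.60 in WT males, 6.03 and 6.72 in LKO-labelled females, and 4.64 and 2.14 in LKO-labelled males. By this sum the LKO-labelled females were within the WT range and both LKO-labelled males below it. Divided by Ptprc (CD45) alone, the class II sum was 38.5 to 78.1 in WT, 44.9 and 65.1 in LKO-labelled females, and 75.7 and 14.7 in LKO-labelled males, so that LKO-labelled male 4 alone lay below the WT range.

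**Figure D3:**
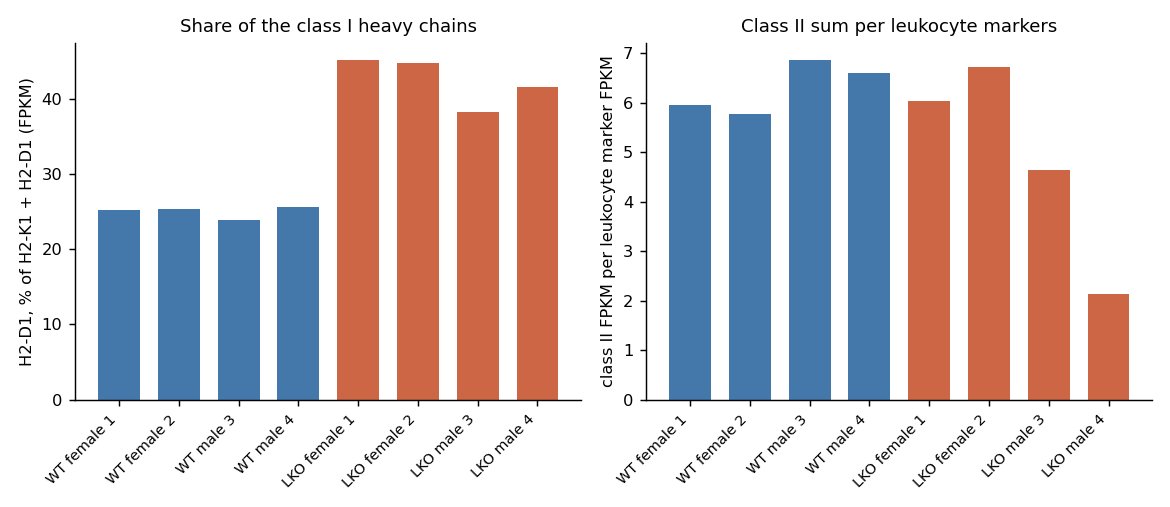
Left, H2-D1 as a percentage of the summed FPKM of H2-K1 and H2-D1 in each liver; right, summed FPKM of H2-Aa, H2-Ab1, H2-Eb1 and Cd74 divided by the summed FPKM of 4 leukocyte markers. The H2-D1 share was 23.9% to 25.6% in WT and 38.2% to 45.2% in LKO-labelled livers, and the class II ratio was lowest in LKO-labelled male 4 (2.14).

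Markers of 10 macrophage and monocyte genes summed to 111 to 227 FPKM in WT, 976 and 1351 in LKO-labelled females, and 123 and 162 in LKO-labelled males. All 10 were called higher in females, against 28.1% of all genes tested, and 1 of 10 in males, against 13.4%. The class II sum per macrophage sum was 0.738 to 1.0004 in WT, 1.24 and 1.15 in LKO-labelled females, and 0.995 and 0.389 in LKO-labelled males. Markers of Kupffer cells, the resident macrophages of the liver, went the other way. Their sum was 79.4 to 187 FPKM in WT and 16.9 to 70.4 in LKO-labelled livers. Of these 6 genes, 5 were called lower in females, against 6.23% of all genes tested, and 2 in males, against 4.09%.

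Of 10 dendritic cell markers 7 were tested. Limma called 5 higher in females, against 28.1% of all genes tested, and 0 in males, against 13.4%. At an unadjusted p under 0.05, 5 passed in females and 1 in males. The sum of the 10 was 5.42 to 6.39 FPKM in WT, 34.4 and 72.0 in LKO-labelled females, and 7.21 and 5.25 in LKO-labelled males. Fscn1 (16.5 and 38.6 FPKM) and Itgax made up most of it in the LKO-labelled females. Itgax (CD11c) stood at 8.33 and 14.8 FPKM in LKO-labelled females against 0.151 to 0.524 in WT, and in females Fscn1 (log2 change 3.10, limma adjusted p = 0.00174), Ccr7 (1.91, 0.0113), Batf3 (1.55, 0.016) and Cd209a (1.496, 0.00684) were called higher too. Zbtb46 and Clec9a were not called in females (adjusted p = 0.809 and 0.589). Flt3 stood at 0.0126 to 0.225 FPKM in WT and 0.527 and 1.10 in LKO-labelled females, and like Xcr1 and Siglech it was too low to be tested. Cd209a, Ccr7 and Siglech were listed at 0 in 1 library each. T and NK cell markers summed to 4.26 to 7.49 FPKM in WT and to 22.8 and 50.8 in LKO-labelled females. Of 10 tested, 7 were called higher in females, against 28.1% of all genes, and 0 in males, against 13.4%. B cell markers were low and uneven, at 1.16 to 8.02 FPKM in WT and 0.483 to 19.4 in LKO-labelled livers. Limma called 0 of 4 tested genes in either sex, against 28.1% of all genes higher in females and 13.4% in males. At an unadjusted p under 0.05, 1 passed in females and 0 in males. Sinusoidal endothelial markers summed to 60.3 to 101 FPKM in WT, 37.4 and 115 in LKO-labelled females, and 35.97 and 37.7 in LKO-labelled males. The cholangiocyte list reached 293 and 3158 FPKM in LKO-labelled females against 19.96 to 22.1 in WT. That rise came mostly through Spp1 (291 and 3145), which macrophages also express. Limma called 2 of 3 tested genes higher in females, against 28.1% of all genes, and 0 in males, against 13.4%. The 2 were Spp1 and Sox9 (log2 change 1.67, limma adjusted p = 0.0274). Epcam reached 5.23 FPKM in LKO-labelled female 2 but was not called in females (0.325). Krt7 and Krt19 were too low to be tested. The 7 hepatocyte markers, mostly Alb, summed to 41912 to 47154 FPKM in WT and 19069 to 31757 in LKO-labelled livers. Limma called 4 of the 7 lower in females, against 6.23% of all genes, and 4 in males, against 4.09%. In mean FPKM, Apoa1 and Ttr stood at 124% and 132% of WT in females, and Cps1 at 167% in males. None of these rises passed the test. The part of any of these cells in the class II values was not tested.

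**Figure D4:**
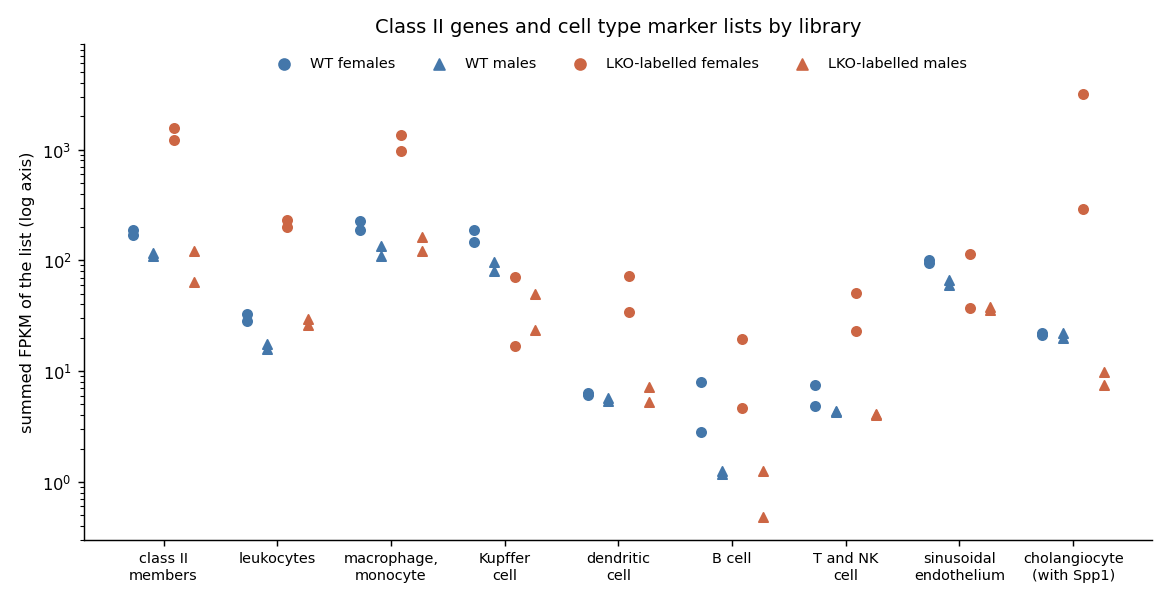
Summed FPKM, on a log axis, of the class II genes and of each cell type marker list in each of the 8 livers; colour gives the genotype label and shape the sex. In the LKO-labelled females the leukocyte, macrophage, dendritic and T or NK sums were 5.61 to 8.55 times those of WT females. The largest, the dendritic sum, rested mostly on Fscn1 and Itgax. The Kupffer cell sum was 0.262 times that of WT females.

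The wider pathway was read through 67 further genes in 6 lists, of which 66 were in the table and 59 were tested. H2-L was not matched in the table, and H2-T3 was listed at 0 in all 8 libraries. Over both sexes, 13 of the 59 were called higher, against 24.7% of all genes, and 4 lower, against 5.74%, both near the background (median log2 change 0.29, against 0.39 over all genes). In females 23 were called higher, against 28.1%, and 2 lower, against 6.23% (median 0.72 against 0.45). In males 4 were called higher, fewer than the 13.4% of all genes would give, and 6 lower, against 4.09% (median 0.04 against 0.24).

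Among 14 tested nonclassical and neighbouring class I chains, 1 was called higher over both sexes, against 24.7% of all genes, and 2 lower, against 5.74%. Cd1d1, which presents lipids to NKT cells, stood at 137 to 174 FPKM in WT, 35.7 and 67.4 in LKO-labelled females, and 62.7 and 66.8 in LKO-labelled males. All LKO-labelled livers lay below WT, and Cd1d1 fell by 1.41 ± 0.24 (log2, SE; limma adjusted p = 0.00598), in females by 1.74 (0.00517) and in males by 1.07 (0.0498). H2-T22 fell by 0.93 ± 0.29 (adjusted p = 0.0428), from 27.7 to 39.5 FPKM in WT to 8.27 and 8.88 in LKO-labelled males, with 26.6 and 37.3 in LKO-labelled females. H2-M2 rose by 2.06 ± 0.53 (0.0225): it was listed at 0 in both WT males and stood at 14.9 and 20.7 FPKM in LKO-labelled females. H2-M3, which shows formylated bacterial peptides, rose in females by 1.38 ± 0.22 (0.00379). These chains resemble H2-K1 and H2-D1 in sequence, and reads may be split among them.

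Of 11 genes of peptide supply to class I, limma called 0 higher over both sexes, against 24.7% of all genes, and 1 lower, against 5.74%. At an unadjusted p under 0.05 the numbers were the same. Erap1, which trims peptides in the endoplasmic reticulum, fell by 0.62 ± 0.18 (log2, SE; limma adjusted p = 0.0325). Tapbp (tapasin, a bridge between Tap and the heavy chain), Psme1 and Psmb10 changed by 0.27, 0.32 and 0.18, and none passed the test (adjusted p = 0.137 to 0.485). Psmb8, a catalytic subunit of the immunoproteasome, stood at 4.23 and 4.72 FPKM in WT females, 3.46 and 3.09 in WT males, 10.3 and 10.6 in LKO-labelled females, and 0.809 and 1.09 in LKO-labelled males. The groups were apart in both sexes and in opposite directions, so Psmb8 rose by 1.06 ± 0.20 in females (adjusted p = 0.00625), fell by 1.13 ± 0.20 in males (0.0107) and gave an interaction of 2.20 ± 0.28 (0.0121). Psmb9, a second such subunit and the neighbour of Tap1, changed by 0.72 in females (0.144) and −1.08 in males (0.0707).

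Of 8 tested genes of class II loading, 6 were called higher in females, against 28.1% of all genes, and 2 in males, against 13.4%; the difference from the class II chains was not tested. H2-DMa and H2-DMb1, the chains of the H2-M molecule that edits class II peptides, followed the class II genes: H2-DMa stood at 0.819 to 2.99 FPKM in WT, 17.003 and 18.5 in LKO-labelled females, and 0.993 and 0.794 in LKO-labelled males. It rose by 2.42 ± 0.27 in females (log2, SE; limma adjusted p = 0.000971), and H2-DMb1 by 2.57 ± 0.29 (0.00107), with −0.25 and −0.08 in males (0.565 and 0.893).

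Endosomal proteases rose over both sexes together. Lgmn (legumain) stood at 18.8 to 35.3 FPKM in WT, 171 and 198 in LKO-labelled females, and 62.0 and 72.2 in LKO-labelled males. Ctsl (cathepsin L) stood at 186 to 271 FPKM in WT and 548 to 753 in LKO-labelled livers. For each gene all 4 LKO-labelled livers lay above all 4 WT livers. Lgmn rose by 2.0004 ± 0.23 (log2, SE; limma adjusted p = 0.00128), Ctsl by 1.499 ± 0.22 (0.00327), Ctss (cathepsin S, which cuts the invariant chain) by 2.07 ± 0.39 (0.00778) and Ifi30, a lysosomal thiol reductase, by 1.54 ± 0.36 (0.0169). Within males, Lgmn (1.56, 0.00724) and Ctsl (1.44, 0.0177) passed the test.

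Of 12 transcription factors tied to MHC genes, limma called 2 higher and 0 lower over both sexes, or 4 and 0 at an unadjusted p under 0.05; the 2 are a smaller share than the 24.7% of all genes called higher. Nlrc5, the coactivator of class I genes, rose by 0.63 ± 0.20 (log2, SE; limma adjusted p = 0.0471), standing at 2.62 to 4.06 FPKM in WT and 4.58 to 7.59 in LKO-labelled livers, with no overlap. Irf8, a myeloid factor, rose by 1.35 ± 0.26 (0.00864). Irf1 changed by 0.17 (0.56) and Nfya, a subunit of NF-Y, by 0.68 (0.0512), and neither passed the test.

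Interferon gamma itself (Ifng) was at the edge of detection, at 0.0998 and 0 FPKM in WT females, 0.0918 and 0 in WT males, 0.213 and 0.198 in LKO-labelled females, and 0 in both LKO-labelled males. It was too low to be tested, and a 0 allows up to 3 fragments. Of the 7 tested genes of its pathway, limma called 5 higher in females, against 28.1% of all genes, and 0 in males, against 13.4%. At an unadjusted p under 0.05 the numbers were 5 and 2. The receptor chains Ifngr1 and Ifngr2 rose over both sexes by 1.40 ± 0.30 (log2, SE; limma adjusted p = 0.0126) and 1.34 ± 0.25 (0.00722). Il18, a cytokine that induces interferon gamma, fell by 0.85 ± 0.20 (0.017), and the feedback inhibitor Socs1 changed by 0.80 (0.0737).

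Co-stimulatory and checkpoint ligands, which act beside MHC at the contact with T cells, were called higher in 4 of 7 tested genes over both sexes (24.7% of all genes), 6 in females (28.1%) and 2 in males (13.4%). Icam1, an adhesion molecule, stood at 4.03 and 3.94 FPKM in WT females, 1.64 and 3.28 in WT males, 50.7 and 26.97 in LKO-labelled females, and 25.4 and 26.9 in LKO-labelled males. Every LKO-labelled liver lay well above WT, and Icam1 rose by 2.93 ± 0.34 in females (log2, SE; limma adjusted p = 0.00122) and 3.02 ± 0.34 in males (0.00322). Cd83, a marker of dendritic cell maturation, rose by 1.84 ± 0.26 over both sexes (0.00297) and by 2.05 ± 0.35 in males (0.00997), Cd274 (PD-L1) by 1.32 ± 0.26 (0.00955) and Icosl by 1.34 ± 0.33 (0.0196). The male LKO-labelled livers thus held raised Icam1 and Cd83 beside class II RNA that was not called.

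**Figure D5:**
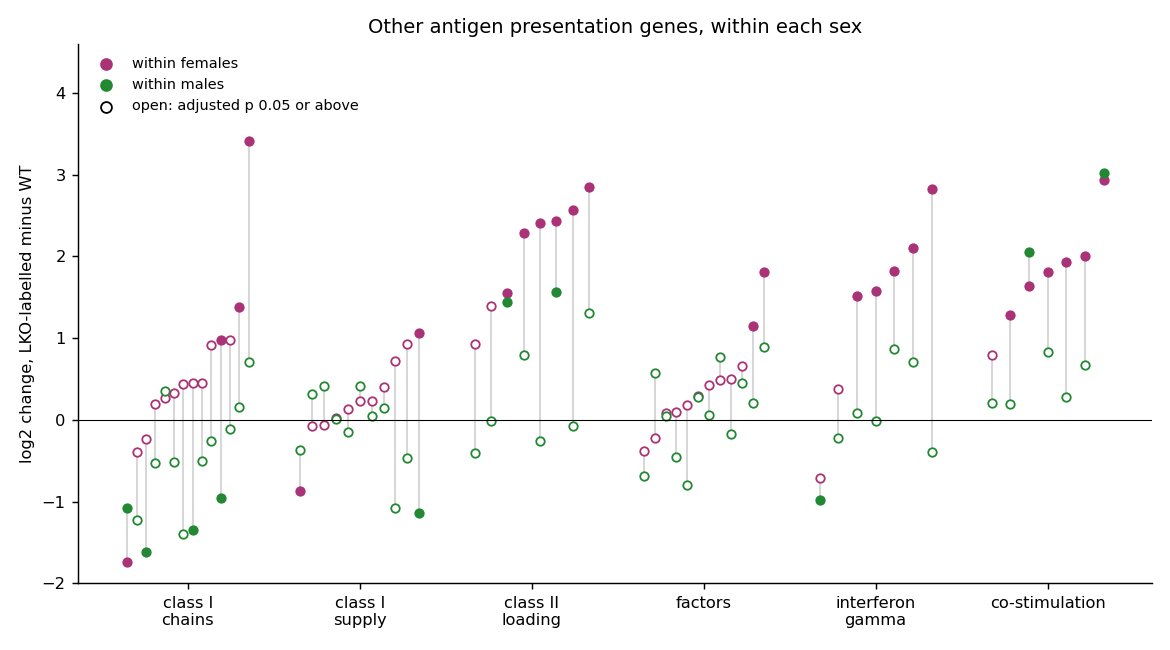
Log2 change of each tested gene of the 6 wider lists, LKO-labelled minus WT, in females and in males joined by a line; filled points have an adjusted p under 0.05. The filled male points above 0 are Ctsl and Lgmn in class II loading and Cd83 and Icam1 among the co-stimulatory ligands.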

How the data were processed

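RNA of 8 mouse livers was measured in 1 deposited table. It holds FPKM values made by the authors, in which fragments are divided by transcript length and by library depth. The tools listed per the submitters' processing notes are fastp, STAR 2.6.1, HTSeq and also DESeq2, on mm10; which did what, the strand setting and the annotation release are not stated. Fragments were recovered from the deposited FPKM values for 22742 of 22743 genes above 0, within 0.001 of a fragment. For 69.3% the longest annotated transcript gave whole fragments; for the rest, H2-Aa, H2-Ab1, H2-Eb1 and Ciita among them, the length was chosen so that they came out whole, so wholeness is no check there and their true fragments may be a multiple. Fragments recovered in this way summed to 99.96% to 99.97% of a depth of 15.1 to 18.8 M.

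Symbols were found for 34490 of 35275 identifiers. The 13573 genes whose mean FPKM reached 0.5 were tested on log2(FPKM + 1) by limma-trend (R 4.3.3, limma 3.58.1), genotype and sex being the terms. The threshold was a Benjamini-Hochberg adjusted p under 0.05 over all genes tested. Shares of all genes are given at this threshold only, so counts at an unadjusted p have no background beside them. Effects within each sex and the interaction were taken from a second limma model, in which every combination of genotype and sex has its own mean, with 4 residual degrees of freedom. A fold on this scale understates changes of low genes. An FPKM divides by the library's total. The median gene moved by 0.39 (log2) between genotypes, and by 0.05 after median-of-ratios scaling, which is built to remove such a shift. The cause of the shift was not tested. For the shares of fragments of these genes, 95% Wilson intervals reach ±0.00298 percentage points, and a gene at 0 may have up to 3 fragments, limits that cover counting error alone.

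The 10 genes and the pathway and cell type lists were chosen with earlier results of these data known. The genes named are the 10, up to 4 per list with the smallest genotype p, fixed genes such as Nlrc5, Psmb8, H2-DMa and Ifng, and the 6 genes nearest to each mean profile; marker genes and the remaining pathway genes named were chosen after their values were seen. A further gene that this rule names is not reported here. Alternatives were 3 other scalings, a pseudocount of 0.1, other filters on low values, no sex term, a block on title numbers, limma-voom on recovered fragments, and fits without single libraries or without both libraries low in Gm42418. The limma steps were tested on simulated data. Figures and tables were made with Python 3.11.15.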

Additional observations from a re-analysis of the deposited data

Results flagged for a closer look

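In 5 genes, all of class II, the genotype difference was itself different in females and males as tested by limma. The interaction, female change minus male change in log2, was 3.42 for H2-Aa (adjusted p = 0.0118), 3.48 for H2-Ab1 (0.0157), 3.58 for H2-Eb1 (0.0157), 2.99 for Cd74 (0.0167) and 1.67 for Ciita (0.0444). In each case both LKO-labelled females lay above every other liver, while no change within males passed the test; LKO-labelled male 4 lay below both WT males in the 3 chains and Cd74. In none of the 10 genes did a single liver stand apart from the other 3 of its genotype by Dixon's test at its 95% limit. That test took females and males together. In the class II genes the widest gap among LKO-labelled livers fell between the sexes, so the test could flag no single liver there.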

How the results depend on the processing

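The female rises of H2-Aa, H2-Ab1, H2-Eb1 and Cd74 passed in all 16 alternatives and that of Ciita in 15 of 15. Over both sexes 3353 genes were higher and 779 lower. Higher and lower counts were 1418 and 1481 with median-of-ratios scaling, 1045 and 1376 with quantile normalization, and 1517 and 453 without both libraries low in Gm42418; without 1 liver they ranged from 1504 to 3255 and from 453 to 799. Of the 10 genes, the higher count over both sexes was 1 by voom and 0 to 1 without 1 liver. The lower count (1, H2-K1) was 2 with median-of-ratios scaling and by voom, 0 with no filter, no sex term, quantile normalization or without the libraries low in Gm42418, and 0 to 2 without 1 liver. In males the lower count (1, B2m) was 2 at a minimum mean FPKM of 2, with median-of-ratios scaling, pseudocount 0.1 or voom, 0 with no filter, quantile normalization or without the libraries low in Gm42418, and 0 to 2 without 1 liver. In females the higher count was 5 to 7 and the lower count 0 to 1 without 1 liver. The interaction count (5) was 1 by voom, 0 to 7 without 1 liver and, Ciita being lost, 4 under each of the other alternatives, at a minimum mean FPKM of 2 because Ciita was not tested. In the wider lists, 13 higher became 6 with no sex term and 23 by voom (9 to 13 without 1 liver), and 4 lower became 6 with median-of-ratios scaling or quantile normalization and 2 without the libraries low in Gm42418 (1 to 4 without 1 liver). The cause was not tested.

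No label gives replicate numbers common to both genotypes. A replicate block on same-sex livers with the nearest title numbers (1 to 5 apart) gave 1960 higher and 545 lower genes, 0 of the 10 genes lower, and 11 higher and 2 lower in the wider lists.

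Signs turned for H2-D1 over both sexes with median-of-ratios scaling (−0.16), for B2m in females with quantile normalization (0.083) and without the libraries low in Gm42418 (0.059), for Tap2 in females with quantile normalization (−0.17), and for Ciita in males without the libraries low in Gm42418 (0.11). Without 1 liver, changes ranged from −0.61 to 0.059 for B2m in females, from −0.42 to 0.049 for Tap2 over both sexes and, in males, from −0.31 to 0.040 for H2-D1, −0.74 to 0.038 for H2-Aa, −0.97 to 0.19 for H2-Ab1, −1.01 to 0.15 for H2-Eb1, −0.67 to 0.13 for Cd74 and −0.26 to 0.11 for Ciita. Those in males, Ciita aside, turned above 0 without LKO-labelled male 4. None of the turned values passed the test. Depth limits Ciita in males and Ifng.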
